A study of Apis mellifera with 12 samples.

Results

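In honey bee (Apis mellifera) worker fat body, 8 microRNAs (miRNAs) known from nervous systems were followed out of 168 on the array: ame-miR-124, ame-miR-137, ame-miR-219, ame-miR-932, ame-miR-1000, ame-miR-315, ame-miR-7 and ame-miR-971, written below without the species prefix. They were chosen by name and not by their values, though earlier results of these data were known. Each has 1 reporter, the array's capture probe for that miRNA, in 18 spots. All workers were injected on emergence with 2 µL of double-stranded RNA (dsRNA) at 10 µg/µL, which in the dsRNA-Vg group targeted the gene of the yolk precursor vitellogenin and in the dsRNA-GFP group, the sham control, targeted a jellyfish fluorescent protein gene, GFP, and no uninjected bees were among the samples. Bees were 15 days old and are labelled as foragers. Each group held 6 pools of small RNA from 5 bees each, with 400 ng per bee, and each pool was hybridised to 1 array. The tissue was the abdominal carcass, which is lined with fat body and also holds other tissue.

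miRNAs are short RNAs that pair through their seed, bases 2 to 8, with messenger RNAs and lower their output. Fat body is the insect organ of nutrient storage and yolk protein synthesis. It is not a nervous tissue, but peripheral nerves run along the abdominal wall, and several of the miRNAs below are also known outside neurons. In bulk tissue, fewer cells of a type and less RNA per cell cannot be told apart.

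The sequences each reporter was made to detect, as the scanner files give them, are shown because they define the 8 miRNAs. They are written 5′ to 3′ with the seed in capitals.
miR-124: uAAGGCACgcggugaaugccaag
miR-137: uUAUUGCUugagaauacacgua
miR-219: uGAUUGUCcaaacgcaauucuug
miR-932: uCAAUUCCguagugcauugcag
miR-1000: aUAUUGUCuugucacagcagu
miR-315: uUUUGAUUguugcucagaaagc
miR-7: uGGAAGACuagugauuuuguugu
miR-971: uUGGUGUUcuaccuuacagugag
Each of the 8 seeds belonged to 1 reporter alone, as did those of 147 of all 168 reporters. Guanine and cytosine made up 31.8% of miR-137 and 56.5% of miR-124, with a median of 38.6% over the 8 against 45.5% over the 168.

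The longest run of letters shared with any other reporter was 6 or 7 bases for 6 of the 8 miRNAs. It was 8 bases between miR-932 and miR-33 and 10 bases between miR-1000 and miR-2944. The shared run of miR-1000 and miR-2944 is in capitals here, since it is the longest stretch through which a reporter of the 8 could take up another miRNA on the array.
miR-1000: auauugucuugUCACAGCAGU
miR-2944: uaUCACAGCAGUaguuaccuggu
RefSeq (assembly Amel_HAv3.1) lists a gene for each of the 8, on linkage groups 1, 2, 7, 9, 10, 11 and 14, with Mir124 and Mir219 both on linkage group 11. The genes of miR-7, miR-932, miR-971 and miR-1000 lie within the bounds of another annotated gene, and the other 4 within none. Coordinates are left out because no build is named in the deposited files.

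Arrays differed in background before any miRNA was considered. Empty spots, which carry no probe, had median intensities of 247.9 to 491.3 on the dsRNA-GFP arrays and 150.2 to 419.4 on the dsRNA-Vg arrays. The median reporter read above the empty spots on 10 of the arrays. It read below them on dsRNA-GFP pool 4 (log2 difference -0.10) and dsRNA-Vg pool 6 (-0.02), so few miRNAs can count as detected there. Detection on an array means here that 50% or more of a reporter's spots lay above the 95th percentile of the empty spots.

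The first question is which of the 8 rose above the empty spots. All 8 did over the 12 arrays, by mean log2 differences of 0.08 to 0.34, but so did 95.2% of all 168 reporters. The median over the 8 miRNAs was 0.12, as it was over all 168, so a reading above an empty spot did not set these miRNAs apart. The test was a two-sided exact sign-flip permutation test over the 12 arrays, with Benjamini-Hochberg adjustment over 168 reporters. Against the median of all 168 reporters of the same array, 3 of the 8 rose, beside 38.1% of all reporters: miR-971, miR-124 and miR-7. Against the median of the dimmer reporters, those at or below the array's median, 6 of the 8 rose, beside 60.1% of all. The test against all reporters was chosen after the data were seen. Reporters bind their targets unequally, so these differences describe signal over background and do not rank the miRNAs by abundance.

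**Figure D1:**
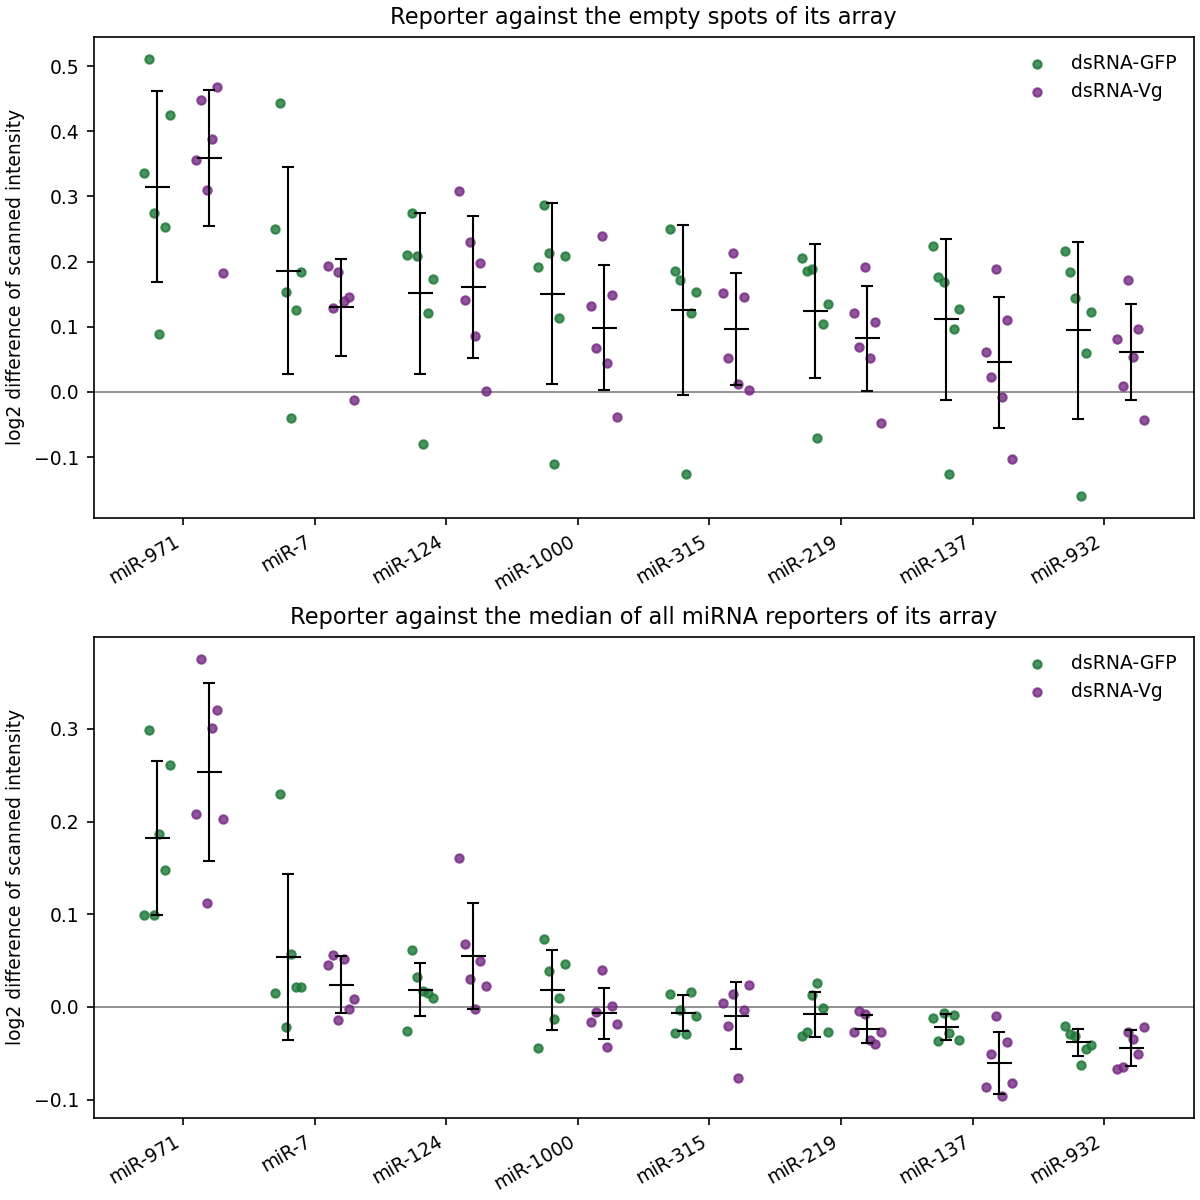
Scanned intensity of the 8 miRNAs on each of 12 arrays as a log2 difference from the empty spots (top) and from the median of all 168 reporters (bottom). Points are pools, bars show the mean and SD of 6 pools; miR-971 lies above 0 on all 12 arrays in both panels, while miR-137 and miR-932 lie below 0 on all 12 in the bottom panel.

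miR-971 gave the clearest signal of the 8 over its background. No role is given for it here. Its spot median exceeded the median of the empty spots on 12 of 12 arrays, by 0.34 ± 0.12 on the log2 scale (SD, n = 12, exact sign-flip adjusted p = 0.00175), and that of all reporters by 0.22 ± 0.09 (exact sign-flip adjusted p = 0.00111). Both rest on the smallest unadjusted p that 12 arrays allow, 0.000488. It was detected on 5 arrays of the dsRNA-GFP group and all 6 of the dsRNA-Vg group, and on 11 arrays at least 15 of its 18 spots passed. In the deposited value table, which holds the authors' processed intensity on a linear scale, its lowest, median and highest values were 98, 128.5 and 189 after dsRNA-GFP. After dsRNA-Vg they were 115, 128.5 and 166, so the dsRNA-Vg range lay inside the dsRNA-GFP range.

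miR-124, which is restricted to neurons in many animals and represses genes of other cell types, stood a little above the typical reporter. It exceeded the empty spots by 0.16 ± 0.11 (SD, n = 12, exact sign-flip adjusted p = 0.00391) and the median of all reporters by 0.04 ± 0.05 (exact sign-flip adjusted p = 0.0112), higher on 10 of 12 arrays. Its detection was split evenly, on 4 arrays of each group. Deposited intensities had a lowest, median and highest value of 40, 57.5 and 74 after dsRNA-GFP and of 31, 54 and 141 after dsRNA-Vg. The 141 came from dsRNA-Vg pool 1 and a value of 101 from dsRNA-Vg pool 3, and the other dsRNA-Vg pools lay within or below the dsRNA-GFP range.

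On dsRNA-Vg pool 1, the brightest of the 18 miR-124 spots read 1088 against 557.9 for the next. The signal was raised without that spot too: the spot median was 519.3, which is 0.16 on the log2 scale above the array's median reporter, against 0.07 or less on every other array. Without dsRNA-Vg pool 1, miR-124 exceeded the median of all reporters by 0.03 (exact sign-flip adjusted p = 0.0214).

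miR-7, which in the fly acts in photoreceptor differentiation and also outside the nervous system, exceeded the empty spots by 0.16 ± 0.12 (SD, n = 12, exact sign-flip adjusted p = 0.00505). It was 0.04 ± 0.07 above the median of all reporters (exact sign-flip adjusted p = 0.0249), higher on 9 of 12 arrays. dsRNA-GFP pool 2 was the highest of all pools at 0.23, and without it the difference was 0.02 (exact sign-flip adjusted p = 0.0486). All 18 spots were above the detection bound on that array. It was detected on 4 arrays of the dsRNA-GFP group and 5 of the dsRNA-Vg group.

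The other 5 were not above the typical reporter. miR-1000, which limits glutamate release at fly synapses, differed from the median of all reporters by 0.01 ± 0.04 (SD, n = 12, exact sign-flip adjusted p = 0.648) and was detected on 4 dsRNA-GFP and 3 dsRNA-Vg arrays. miR-315, which promotes Wingless signalling in the fly, differed by -0.01 ± 0.03 (exact sign-flip adjusted p = 0.421) and was detected on the same numbers of arrays. miR-219, known in mammals from the maturation of myelin-forming cells, was lower by a mean of -0.02 ± 0.02 (exact sign-flip adjusted p = 0.041), a call that ended when the array of dsRNA-GFP pool 1, 2 or 6 was left out, or that of pool 1, 4, 5 or 6 of the dsRNA-Vg group (adjusted p 0.0692 to 0.0814).

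miR-137, which acts in neuronal maturation in mammals, and miR-932, which is linked to memory formation in the bee, were dimmer than the median reporter on 12 of 12 arrays. Their mean log2 differences from it were each -0.04 (exact sign-flip adjusted p = 0.00111 for both, n = 12). Against the empty spots they were higher by 0.08 each (exact sign-flip adjusted p = 0.0426 for miR-137 and 0.0336 for miR-932). Those 2 calls did not hold without single arrays: miR-137 missed the threshold without any 1 of dsRNA-GFP pools 1, 2, 3, 5 and 6, and miR-932 without pool 1, 2, 3 or 6 of that group, while leaving out pool 1, 3 or 5 of the dsRNA-Vg group ended both calls (adjusted p 0.0507 to 0.0831). miR-137, miR-219 and miR-932 were each detected on 4 dsRNA-GFP arrays and 1 dsRNA-Vg array.

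Detection followed the array more than the miRNA. All 8 miRNAs were detected on 5 arrays, pools 1, 2, 3 and 6 of the dsRNA-GFP group with pool 3 of the dsRNA-Vg group, where 139 to 168 of all reporters were detected. On dsRNA-GFP pool 4, 0 of the 8 were detected, and 1 each on dsRNA-GFP pool 5 and dsRNA-Vg pool 6, where 37 to 47 of all reporters were. Of 96 pairs of a miRNA and an array, 57 were detected, 33 of 48 after dsRNA-GFP and 24 of 48 after dsRNA-Vg. Over all 168 reporters and 12 arrays, 1267 pairs were detected. Each dsRNA-GFP array had 37 to 168 reporters detected, and each dsRNA-Vg array 44 to 163. Counts of detected arrays were therefore not read as a difference between treatments. On at least 6 of 12 arrays, 5 of the 8 were detected, beside 75.6% of all reporters, and on all 12 arrays 0 of the 8, beside 20.8%. A stricter rule on the spots, 80% of them, left miR-971 alone of the 8 (32.1% of all reporters), and the 99th percentile left miR-971 and miR-124 (35.1% of all). With detection set against the dimmer reporters, 13 of 96 pairs remained, 9 of miR-971, 2 of miR-124 and 2 of miR-7, and miR-971 alone reached 6 arrays (29.2% of all).

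Of the summed deposited signal of all reporters, the 8 miRNAs together took 0.284% ± 0.046 after dsRNA-GFP and 0.254% ± 0.070 after dsRNA-Vg (SD, n = 6 each). The summed intensity of the 8 ran from 372 to 559 after dsRNA-GFP and from 316 to 564 after dsRNA-Vg. The muscle miRNAs miR-1 and miR-133, both detected on all 12 arrays, summed to 1618 to 5224 after dsRNA-GFP and 1835 to 3225 after dsRNA-Vg. The midgut miRNAs miR-281, miR-750 and miR-1175, of which 1 was detected on all arrays, summed to 223 to 6294 and 175 to 5412. Of the broadly expressed miRNAs known from fat body, miR-8, miR-14, miR-277 and miR-278, 3 of 4 were detected on all arrays, with sums of 40322 to 51900 and 42079 to 52112. Most of that sum was miR-8, which alone read 32766 to 44058 over the 12 pools. By contrast, miR-14 read 5 to 477 and was detected on 7 arrays. Both miR-8 and miR-14 also have a described role in neurons. The ovary miRNAs miR-989 and miR-318, of which 0 were detected on all arrays, summed to 63 to 111 and 71 to 133. None of these markers was at 0.

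The second question is which of the 8 differed between treatments. None passed the threshold of an adjusted p of 0.05, in either source of values. Among the 5 tested on scanner values, limma called 0, beside 1.57% of the 127 miRNAs detected on at least 6 arrays. In the deposited table it called 0 of 8, beside 1.19% of all 168. At an unadjusted p under 0.05 there were 0 of 5 on scanner values, where all 127 gave 18, and 1 of 8 in the deposited table, where all 168 gave 22. With all 168 reporters tested on scanner values, 0 of 8 were called, beside 1.19% of all, and 1 of 8 had an unadjusted p under 0.05, where all 168 gave 22. In 0 of 8 cases did the deposited values of the groups not overlap, beside 1.19% of all reporters.

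**Figure D2:**
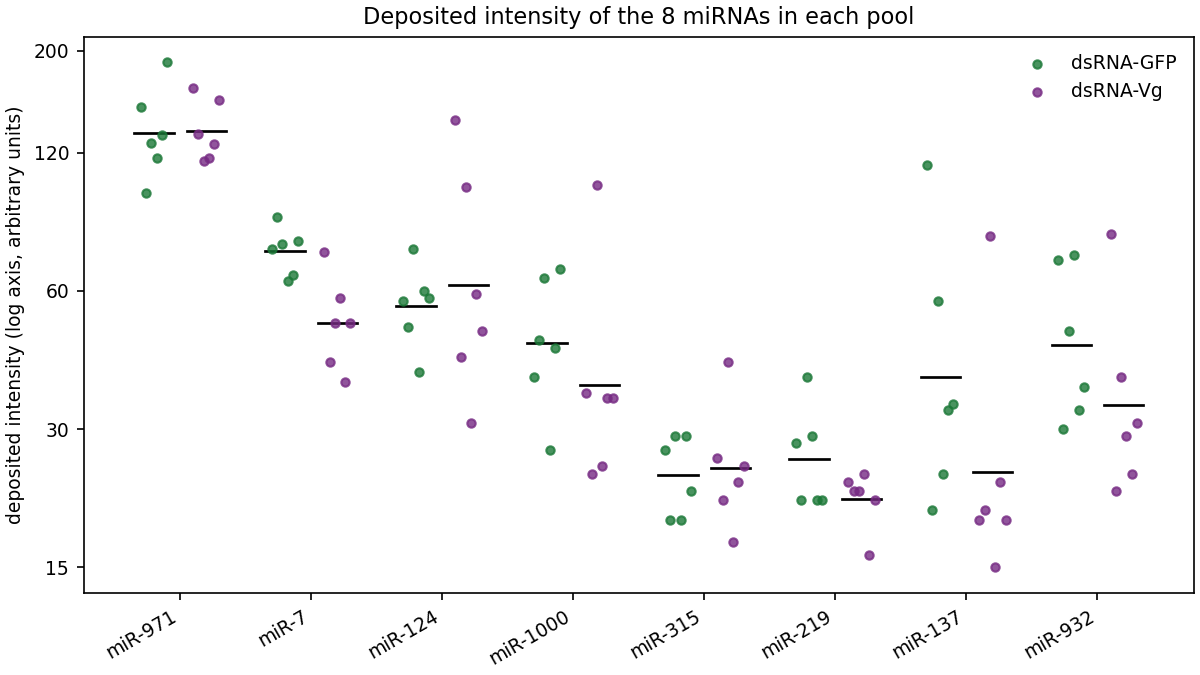
Deposited intensity of each miRNA in each pool, on a log axis in arbitrary units; points are pools and lines are means of log2(value + 1) over 6 pools. The groups overlap for all 8 miRNAs, and miR-7 comes nearest to separation, with 5 of 6 dsRNA-Vg pools below the lowest dsRNA-GFP pool.

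miR-7 had the smallest p of the 8 in the deposited table. Its lowest, median and highest deposited intensities were 63, 75 and 87 after dsRNA-GFP and 38, 51 and 73 after dsRNA-Vg. Of the 6 dsRNA-Vg pools, 5 lay below every dsRNA-GFP pool, and dsRNA-Vg pool 1, at 73, lay among them. The log2 fold change on the log2(value + 1) scale was -0.51 (SE 0.18), which is 0.701 times the dsRNA-GFP level (95% CI 0.540 to 0.909), with a limma unadjusted p of 0.011 and an adjusted p of 0.247. Over all 168 reporters the median in that table was -0.11. On the scanner values the log2 fold change of miR-7 was -0.10 (SE 0.06, limma adjusted p = 0.432), at 7.03 ± 0.08 after dsRNA-Vg against 7.13 ± 0.12 after dsRNA-GFP (SD, n = 6 each). With the median of the 18 spots in place of their mean, and all 168 reporters tested, it was -0.04 (SE 0.07, limma adjusted p = 0.872). Without dsRNA-GFP pool 2 it was -0.05 (limma adjusted p = 0.614). It was larger, at -0.34, with a surface of the empty spots subtracted (limma adjusted p = 0.668). With arrays left unnormalized it was -0.36 (limma adjusted p = 0.613), and all tested reporters then had a median of -0.22. The sign was negative in all 24 alternatives run, and none passed the threshold.

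**Figure D3:**
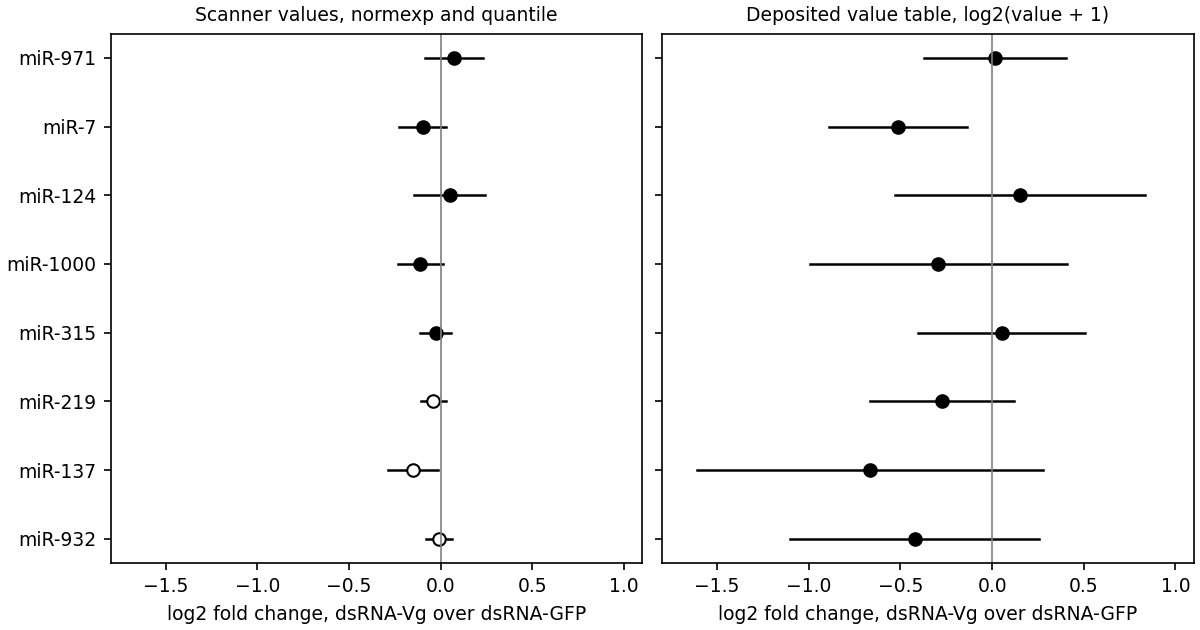
Log2 fold changes of dsRNA-Vg over dsRNA-GFP with 95% confidence intervals from limma, from scanner values (left, all 168 reporters fitted; open points were detected on fewer than 6 arrays) and from the deposited table (right). Intervals are narrower on the left, where an offset of 50 added to the intensities lowers log2 changes near background. No adjusted p lies under 0.05 in either panel.

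miR-137 had the largest fitted difference of the 8 in the deposited table and also the largest spread. Its lowest, median and highest deposited intensities were 20, 33.5 and 113 after dsRNA-GFP and 15, 19.5 and 79 after dsRNA-Vg. One dsRNA-Vg pool, pool 3 at 79, was higher than 5 of the 6 dsRNA-GFP pools, while the other 5 dsRNA-Vg pools read 15 to 23. The log2 fold change was -0.67 (SE 0.44, limma adjusted p = 0.493), and -1.0 (limma adjusted p = 0.145) without dsRNA-Vg pool 3 and -0.37 (limma adjusted p = 0.758) without dsRNA-GFP pool 1. On scanner values, with all 168 reporters tested, it was -0.15 (SE 0.06, limma unadjusted p = 0.0327, adjusted p = 0.344). With the median of the spots it was -0.11 (SE 0.04, limma unadjusted p = 0.011, adjusted p = 0.231).

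The 3 pools with the highest miR-137, which were pools 1 and 3 after dsRNA-GFP along with pool 3 after dsRNA-Vg, were also pools with a strong signal of the midgut miRNA miR-750. It read 1851, 5040 and 3973 there. However, dsRNA-GFP pools 2 and 5 had miR-750 at 2000 and 3602 with miR-137 at 20 and 33. The other 7 pools read 118 or less for miR-750. Its part in the differences between pools was not tested.

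miR-1000 was high in that same dsRNA-Vg pool 3. Its lowest, median and highest deposited intensities were 27, 46 and 67 after dsRNA-GFP and 24, 35 and 102 after dsRNA-Vg, and the other 5 dsRNA-Vg pools read 36 or less. The log2 fold change in the deposited table was -0.29 (SE 0.33, limma adjusted p = 0.691), and -0.58 (limma adjusted p = 0.173) without that pool. On scanner values it was -0.11 (SE 0.06, limma adjusted p = 0.375).

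For miR-932 the deposited intensities had a lowest, median and highest value of 30, 43 and 72 after dsRNA-GFP and of 22, 30 and 80 after dsRNA-Vg. The highest pool of each group was dsRNA-GFP pool 4 and dsRNA-Vg pool 1. The log2 fold change was -0.42 (SE 0.32, limma adjusted p = 0.562) in the deposited table, and -0.67 (limma adjusted p = 0.302) without dsRNA-Vg pool 1. On scanner values, with all 168 reporters tested, it was -0.01 (SE 0.03, limma adjusted p = 0.905).

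Single spots stood out in the pools that gave those high values. On dsRNA-GFP pool 4 the brightest miR-932 spot read 896.7 against 311.1 for the next and a median of 285.2. On dsRNA-Vg pool 1 the brightest read 1110 against 490.0 for the next and a median of 443.4. The miR-932 medians lay below the median reporter on both arrays, as they did on all 12 arrays. On dsRNA-GFP pool 1 the deposited miR-932 value was 70, near the 72 of dsRNA-GFP pool 4. No miR-932 spot stood out there (brightest 626.0, median 570.5). For miR-137 on dsRNA-GFP pool 1 the brightest spots read 1092 and 841.3 against a median of 573.8. By contrast, the high miR-137 of dsRNA-Vg pool 3 came with no spot above 1.5 times the median. Its scanned median there was also below the median reporter (log2 difference -0.01). For miR-971 on dsRNA-GFP pool 1 the brightest spot read 983.5 against 764.2 for the next and a median of 619.9. The deposited miR-971 value of that pool was 151. A spot of more than 1.5 times its reporter's median occurred in 5 of 96 pairs of one of the 8 miRNAs and an array, or 5.21%, and in 2.43% of such pairs over all 168 reporters. How spots were summarised in the deposited table is not known, so the part of these spots in its values was not tested.

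**Figure D4:**
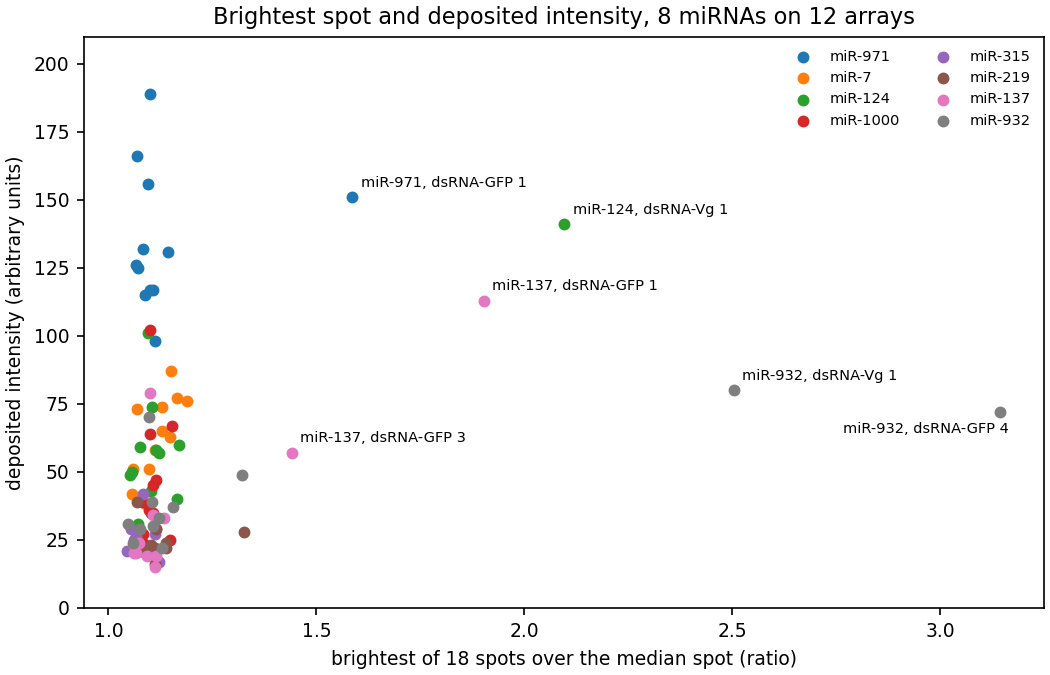
Deposited intensity (arbitrary units) against the ratio of the brightest of 18 spots to the median spot, for 8 miRNAs on 12 arrays. Most points have a ratio near 1. Points to the right include miR-932 on dsRNA-GFP 4 and dsRNA-Vg 1, miR-124 on dsRNA-Vg 1 and miR-137 on dsRNA-GFP 1. These hold the high deposited values described for those pools. miR-971 on dsRNA-GFP 1 also lies to the right, at a deposited value of 151.

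The remaining 4 miRNAs, miR-971, miR-124, miR-315 and miR-219, had intervals on both sides of 0 on scanner values and in the deposited table. The deposited intervals of miR-137, miR-932 and miR-1000 also lay on both sides of 0. The log2 fold change of miR-971 was 0.07 (SE 0.07, limma adjusted p = 0.686) on scanner values, which is 1.05-fold (95% CI 0.940 to 1.18), and of 0.01 (SE 0.18, limma adjusted p = 0.965) in the deposited table. miR-124 gave 0.05 on scanner values (SE 0.09, limma adjusted p = 0.834). Its deposited values gave 0.15 (SE 0.32, limma adjusted p = 0.873), and without dsRNA-Vg pool 1 both were negative, at -0.04 and -0.09. miR-315 gave -0.03 on scanner values (SE 0.04, limma adjusted p = 0.767). In the deposited table it was at 0.05 (SE 0.21, limma adjusted p = 0.954), with deposited intensities of 19 to 29 after dsRNA-GFP and 17 to 42 after dsRNA-Vg. miR-219 gave -0.04 on scanner values with all 168 reporters tested (SE 0.03, limma adjusted p = 0.594), with an interval from 0.927 to 1.02 times the dsRNA-GFP level. It had -0.27 in the deposited table (SE 0.18, limma adjusted p = 0.503), with intensities of 21 to 39 after dsRNA-GFP and 16 to 24 after dsRNA-Vg. Its interval in that table was wider, from 0.629 to 1.09 times the dsRNA-GFP level. The scanner values hold an added offset of 50, which lowers log2 changes this near background by construction. Their narrower intervals are therefore not bounds on the change of a miRNA. With a surface of the empty spots subtracted, miR-124 was at 0.29, miR-315 at -0.15 and miR-971 at 0.07. The median log2 fold change in the deposited table was -0.28 over the 8 and -0.11 over all 168 reporters, and 5 of the 8 and 109 of the 168 were negative.

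A second list held 19 other miRNAs with a described role in neurons of the fly or the bee, most of which are also known from other tissues. On at least 6 arrays 18 were detected, beside 75.6% of all reporters, and on all 12 arrays 8, beside 20.8%. limma called 0 of 18 after dsRNA-Vg, beside 1.57% of the 127 tested, and 5 of 18 had an unadjusted p under 0.05, where all 127 gave 18. The median log2 fold change was -0.01, as it was over all 127. The lowest values were -0.33 for let-7 (SE 0.20, limma adjusted p = 0.432), which acts in the maturation of fly mushroom body neurons, and -0.31 for miR-14 (SE 0.12, limma adjusted p = 0.218), which acts in insulin-producing neurosecretory cells of the fly and is also among the fat body miRNAs above. The highest were 0.33 for miR-34 (SE 0.15, limma adjusted p = 0.33), which protects the ageing fly brain, and 0.21 for miR-125 (SE 0.07, limma adjusted p = 0.218), whose gene lies in the let-7 complex. miR-9b was detected on 2 arrays and not tested.

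Patterns over the 12 pools were set against those of the other 167 reporters for the 5 miRNAs detected on at least 6 arrays, as a description with no test, since the most alike of 167 was picked each time. miR-210, known from fly photoreceptors and in the second list, was most like miR-124 (Pearson r = 0.87, Spearman rho = 0.48, 12 pools). dsRNA-Vg pool 1 was the highest pool for both: miR-210 read 7.83 on the normalized log2 scale there and 7.12 to 7.43 elsewhere, and miR-124 read 7.52 there and 6.93 to 7.10 elsewhere. The 18 miR-210 spots of that array ran from 509.1 to 621.9, with none apart from the rest. Without dsRNA-Vg pools 1 and 6, the pools farthest from the miR-124 median, r was 0.70, and in the deposited table it was 0.65. The next most alike miR-124 was miR-34 (r = 0.52, rho = 0.22), with r = 0.32 without those 2 pools. The reporters most like the others were miR-3719 (r = 0.80) and miR-3732 (0.74) for miR-971, miR-10 (0.83) and miR-281 (0.76) for miR-1000, miR-3716b (0.88) and miR-3728 (0.80) for miR-315, and miR-iab-4 (0.69) and miR-3793 (0.69) for miR-7. Several of these were lower by other measures. For miR-7 and miR-3793, r was 0.36 without dsRNA-GFP pool 2 and dsRNA-Vg pool 3 and -0.02 in the deposited table, and for miR-7 and miR-iab-4 it was 0.49 and 0.54. In the deposited table r was 0.33 for miR-1000 and miR-281, 0.62 for miR-315 and miR-3716b, 0.51 for miR-315 and miR-3728 and 0.55 for miR-971 and miR-3732. It was 0.70 there for miR-1000 and miR-10 and 0.77 for miR-971 and miR-3719. miR-10 was detected on 4 arrays, and miR-3716b and miR-3728 on 3 each. The part of background in these correlations was not tested.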

How the data were processed

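The labels' protocols describe small RNA that was poly(A)-tailed, joined to an oligonucleotide tag and dyed with Cy3 at LC Sciences, 1 colour per array. Per the file headers, the deposited scanner files hold each spot's intensity, with 628 empty spots and no local background. The authors' value table holds 1 processed intensity per miRNA and pool, and how it was corrected and normalized is not known. The pools are taken as separate biological samples.

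Intensities were corrected with limma's global normexp (limma 3.58.1, R 4.3.3, offset 50), turned to log2, quantile normalized over the miRNA spots and averaged over 18 spots. Groups were compared with limma (lmFit, eBayes, no covariate). Benjamini-Hochberg adjustment ran over the 127 miRNAs detected on at least 6 arrays, at a threshold of 0.05, and over 168 for log2(deposited value + 1). The scripts were tested on simulated data. One alternative subtracted a loess surface of the empty spots (span 0.5, floor 4). Named were the 8 miRNAs, the 2 highest and 2 lowest of the second list, tissue markers, and the 2 reporters most alike each of the 8 that was detected on at least 6 arrays. The members and lists were chosen with earlier results of these data known. The number of arrays limits precision.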

Additional observations from a re-analysis of the deposited data

Results flagged for a closer look

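Of 32 sets of 6 pool values, 5 held a pool well apart from the rest, and about 1.6 would at a nominal rate of 1 in 20. Whether that rate holds for values this near background was not tested. Sets of the other reporters were not counted, so the 5 were not read as an excess particular to these miRNAs. On the normalized log2 scale, miR-124 stood at 7.52 in dsRNA-Vg pool 1 with the remaining dsRNA-Vg pools at 6.93 to 7.04. On the same scale, miR-7 stood at 7.36 in dsRNA-GFP pool 2 and at 7.02 to 7.15 in that group's remaining pools. In the deposited table, dsRNA-Vg pool 3 had miR-137 at 79 against 15 to 23 and miR-1000 at 102 against 24 to 36. miR-219 was low, at 16, in dsRNA-Vg pool 5, with 21 to 24 in the remaining pools of the group.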

How the results depend on the processing

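In each of the settings run, 0 of those of the 8 miRNAs that were tested were called between treatments, on scanner values and in the deposited table alike. These were other background corrections, offsets, normalizations and filters, the median of the spots, the deposited table with a pseudocount of 16, and each pool left out. Under the filter to reporters detected on all arrays, 0 of the 8 could be tested, so that setting says nothing about them. With pool number as a replicate block, 0 were called in either source as well, and 3 rather than 2 reporters on the whole array. After each reporter's group mean was subtracted, same-numbered pools correlated from -0.33 to 0.70. For 2 of 6 numbers the best match was the same number, so the numbers were not taken as pairs. Called reporters on the whole array numbered 1 with scaling to the median, without normalization and among reporters detected on all arrays. Between treatments, signs turned in uncalled differences of miR-124, miR-315 and miR-971. Without normalization between arrays, where the median of all tested reporters was -0.22, miR-124 was at -0.20 and miR-971 at -0.16. Without dsRNA-Vg pool 1, miR-124 was at -0.038 on scanner values (-0.038 to 0.079 with 1 pool left out) and at -0.085 in the deposited table (-0.085 to 0.34). miR-315 was at 0.051 in the deposited table, and there ran from -0.097 to 0.15, negative without pool 2 or 4 of dsRNA-GFP and without pool 3 of dsRNA-Vg. miR-971 there ran from -0.071 to 0.12, negative without pool 2 or 4 of dsRNA-GFP and without pool 1 or 6 of dsRNA-Vg. The count of miRNAs above the empty spots was 6 to 8 with 1 array left out. Against the median of all reporters, chosen after seeing the data, it was 3 (also with any 1 array left out), with miR-137 at -0.041, miR-219 at -0.016, miR-932 at -0.041 and miR-315 at -0.0080, and miR-1000 from -0.00051 (without dsRNA-GFP pool 2) to 0.010. Against the dimmer reporters miR-137 was at -0.0083 and miR-932 at -0.0087. Detected pairs of a miRNA and an array fell from 57 to 27 with the 99th percentile of the empty spots, 26 with 80% of the spots required, and 13 against the dimmer reporters, and were 49 to 57 with 1 array left out. The cause was not tested. The files name no slide or scan, so no batch fit was run. All 8 lie near background, where the added offset lowers log2 changes by construction.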
